A study of Homo sapiens with 3 samples.

Results

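GCG-high alpha-like cells are the cells of these stem-cell-derived islets in which the RNA of glucagon was abundant while that of insulin, somatostatin and the serotonin enzyme TPH1 was low. A barcode was counted as such a cell when GCG made up at least 500 of every 10000 UMIs, with INS below 300, SST below 150 and TPH1 below 1 on the same scale. It also had to hold at least 1000 genes, at most 20% mitochondrial UMIs and at least 0.2% MALAT1, a nuclear RNA that is scarce where the nucleus was lost. Of 5929 barcodes that passed these last 3 limits, 616 were GCG-high cells.

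The islets came from HUES8 cells, a widely used line of human embryonic origin. They were separated with magnets by an antibody to CD49a, the integrin alpha 1 chain that the gene ITGA1 encodes. The fraction that bound the antibody, the fraction that did not and a portion left unsorted were each left to aggregate for 7 days and then measured by droplet single-cell RNA sequencing. These gave the CD49a-positive, the CD49a-negative and the unsorted library, 1 per group. No genotype, drug or other treatment set the groups apart. The cells descend from a single line, no group was repeated, and cells of 1 library are not replicates. No test of a difference between groups was therefore possible, and every interval given is a 95% interval of counting error.

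Alpha cells secrete glucagon, which raises blood glucose by driving the liver to release it. They cut proglucagon with the convertase PCSK2, whereas beta cells process proinsulin largely with PCSK1. The transcription factors PAX4, PDX1 and NKX6-1 belong to the beta side, and IRX1 and IRX2 to the alpha side. Islets made from stem cells are known to pass through cells with both hormones, many of which later become alpha cells.

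The gene GCG lies on the minus strand of chr2:162142873-162152404 in GENCODE release 29 (GRCh38). Homeodomain factors such as PAX6 and PDX1 commonly bind DNA around a TAAT core, and bHLH factors such as NEUROD1 bind the E-box CATCTG, so the stretch just before GCG in which both lie side by side is shown because these factors are among the genes measured below. It comes from RefSeq (GRCh38.p14, chr2:162152326-162152355, minus strand) and covers bases 108 to 79 before the RefSeq start site. In GENCODE it lies inside the annotated 5′ untranslated part of the first exon (162152158 to 162152404). Capitals mark TAAT and CATCTG on either strand.
GCG: acaaaaactcATTAtttaCAGATGagaaat
In the 250 bases before the RefSeq start site, TAAT occurred 2 times and CATCTG 2 times, counting both strands. Among 35116 promoter windows of the same length, 47.4% held TAAT and 12.2% held CATCTG, so neither is rare. The forkhead motif TGTTTAC and the cAMP element TGACGTCA were not among the letters of this window. No binding was measured here, and a match is only a match.

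GCG-high cells were fewer in the CD49a-positive library. They made up 127 of 2075 cells there (6.12%, exact binomial interval 5.13 to 7.24), 253 of 1803 in the CD49a-negative library (14.0%, 12.5 to 15.7) and 236 of 2051 in the unsorted library (11.5%, 10.2 to 13.0). The positive share was 7.91 points below the negative one (interval of the difference in points −9.84 to −6.02) and 5.39 points below the unsorted one (−7.12 to −3.67). The negative share exceeded the unsorted one by 2.53 points (0.418 to 4.66). These shares depend on what else each library held: INS-high cells, chosen by the mirror rule (INS at least 500, GCG below 300, the same limits on SST and TPH1), numbered 975, 199 and 459 in the same order. They also rest on the limits chosen. With GCG at 1000 or more the shares were 2.46%, 5.99% and 5.75%, so the negative and unsorted libraries came close together while the positive stayed lowest.

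Depth and genes per cell were similar in the 3 libraries, and the mitochondrial share was highest in the positive one. In the positive, negative and unsorted libraries, in the order kept from here on, they held a median of 40623, 38359 and 40705.5 UMIs and 7690, 7534 and 7799 genes. Mitochondrial UMIs made up a median of 7.66%, 6.65% and 6.38%, and MALAT1 1.63%, 1.62% and 1.71%. Whole libraries held 127119509, 88397368 and 114479071 UMIs over 4512, 2566 and 2811 barcodes. Between 2 and 6 barcodes were shared by any pair of libraries, and none of them was a GCG-high cell in both. The median GCG level was 910, 904 and 997 per 10000 UMIs, with single cells from 501 to 3174.

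Barcodes left out by a single limit or lying near the GCG limit are described without a test, because the limits chose the cells. Of 144, 318 and 293 kept barcodes with GCG at 500 or more, the INS limit alone removed 14, 24 and 32, the SST limit alone 2, 9 and 6, and the TPH1 limit alone 0, 30 and 17. Just inside the GCG limit, at 500 to below 550, lay 11, 16 and 10 cells, and just outside, at 450 to below 500, lay 10, 17 and 11. Levels lay close on both sides of that edge for the alpha genes IRX2 and TTR. In the negative library IRX2 stood at 327 CPM in cells with GCG of 400 to below 500 and at 273 CPM at 500 to below 600, and TTR at 43849 and 40836 CPM. FXYD3 was less even over the same 2 ranges, at 8.39, 92.4 and 71.9 CPM below the edge and 49.1, 66.1 and 98.6 CPM above it. The cells behind these levels numbered 20, 42 and 31 below the edge and 17, 29 and 25 above it. These CPM, like all levels compared between kinds of cell, are counts per 1000000 UMIs other than GCG and INS, since the rule fixes those hormones.

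INS RNA was present at a low level in most GCG-high cells, with a median of 44.8, 50.5 and 50.6 UMIs per 10000. Free RNA in droplets can add INS to a barcode, and no measure of it from empty droplets was made. Kept cells with TPH1 at 1 or more and GCG below 50, on which no INS limit was set and which can include cells that make INS, had a median INS of 286, 17.5 and 24.5 and a 5th percentile of 11.4, 1.99 and 4.28. The median of GCG-high cells lay above those 5th percentiles. It lay above the medians in the negative and unsorted libraries and below that of the positive one. How much of this INS is free RNA was not tested.

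**Figure D1:**
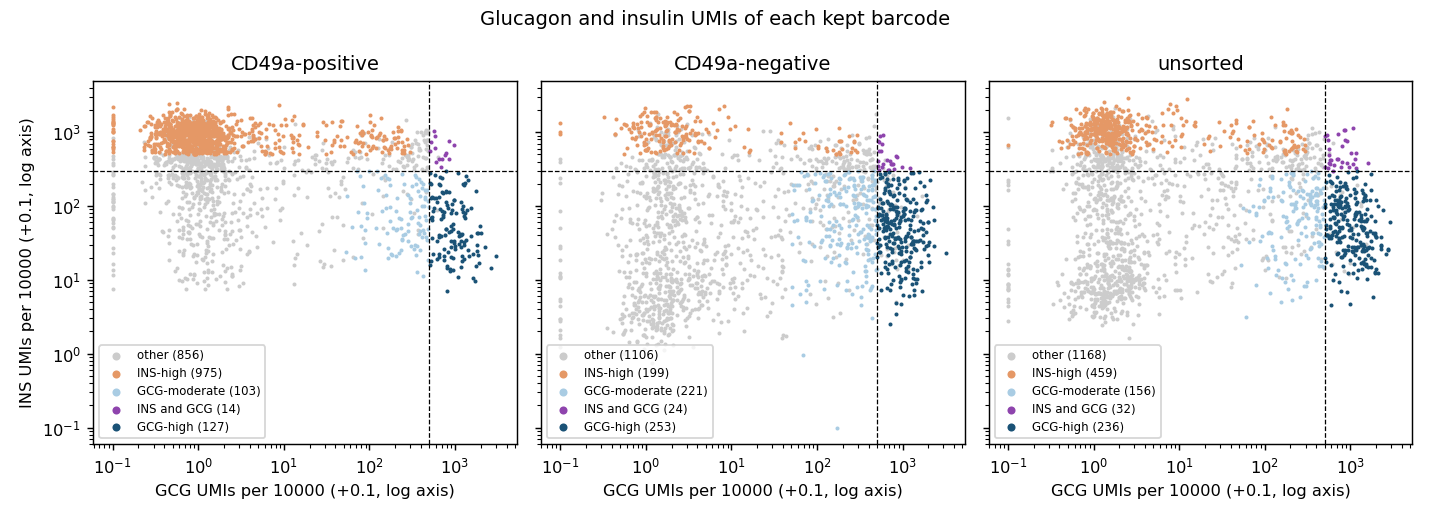
GCG (x axis) and INS (y axis) UMIs per 10000 UMIs, both with 0.1 added and on log axes, for each kept barcode in the 3 libraries. Dashed lines mark the GCG limit of 500 and the INS limit of 300; the 127, 253 and 236 GCG-high cells (dark blue) lie at the lower right, beside the paler GCG-moderate cells and below the few cells with both hormones.

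The name alpha-like is set beside alpha markers that the rule did not use. In GCG-high cells all 9 of them, IRX1, IRX2, FXYD3, VIM, LOXL4, TM4SF4, GC and TTR included, reached 10 CPM in every library. In INS-high cells 7, 8 and 7 of the 9 did so, and this limit alone sets the kinds little apart. All 9 also reached it in every library in GCG-moderate cells and in cells with both hormones, described further below. The summed level of the 9 in GCG-high cells was 38277, 53453 and 51312 CPM, most of it TTR. It was 16555, 19629 and 19022 CPM in INS-high cells. Cells with both hormones came close to GCG-high cells, at 36340, 48890 and 46671 CPM, and GCG-moderate cells had 27137, 40763 and 35221 CPM. IRX2 gave a UMI in 87.3%, 92.1% and 92.4% of GCG-high cells after every cell was thinned to 10000 UMIs, and in 45.4%, 51.8% and 46.6% of INS-high cells thinned the same way; without thinning the IRX2 shares were 99.2%, 99.6% and 100% against 81.2%, 77.7% and 79.6%. VIM, an intermediate filament, gave a UMI in 96.0%, 98.8% and 97.9% of thinned GCG-high cells and in 21.4%, 31.0% and 26.6% of INS-high cells; unthinned, the VIM shares were 100%, 99.6% and 99.2% against 44.1%, 52.8% and 53.2%. FXYD3, an ion transport regulator, was patchier, with 21.4%, 28.6% and 29.2% against 4.90%, 7.61% and 5.71%; unthinned, 38.9%, 44.4% and 45.3% of GCG-high cells held an FXYD3 UMI against 13.2%, 14.7% and 15.6%. The summed level and the shares of IRX2, VIM and FXYD3 were thus higher than in INS-high cells. The marker lists were chosen with earlier results of these data known, so these values describe the name and do not test it. The cells were also chosen on GCG, and their other genes come from the same counts.

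Markers of other cell types were present at several levels. The beta markers other than INS summed to 1355, 1019 and 1469 CPM, against 4362, 3978 and 4215 CPM in INS-high cells, and MAFA was at 0 in the unsorted GCG-high cells. The 5 delta markers other than SST summed to 46.9, 49.1 and 62.8 CPM with GHSR at 0 throughout. Acinar markers summed to at most 0.713 CPM, mesenchymal to at most 5.94 and pluripotency markers to at most 1.87, each with no marker at 10 CPM. Enterochromaffin markers other than TPH1 summed to 216, 315 and 257 CPM, of which FEV gave 106, 158 and 149. Neural markers summed to 566, 506 and 513 CPM. Duct markers summed to 190, 219 and 198 CPM, above the 124, 122 and 121 CPM of INS-high cells. Endothelial markers summed to 22.3, 22.2 and 25 CPM with PECAM1, CDH5 and KDR at 0. Markers of epsilon and pancreatic polypeptide cells were likewise above INS-high cells, at 69.5, 82.7 and 96.2 against 34.9, 37.5 and 32.9 CPM. The 8 proliferation genes summed to 25.8, 68.2 and 74.5 against 24.9, 17.1 and 47.1 CPM. Hepatic and intestinal markers summed to 89.1, 101 and 92.8 CPM. Enterochromaffin, neural, delta and hepatic or intestinal sums were higher in INS-high cells in each library. FEV went against the enterochromaffin sum, as it was lower in INS-high cells, at 41.6, 82.4 and 83.2 CPM. The part of these markers in the differences below was not tested. In bulk sums such as these, a few cells of another type and a low level in every cell cannot be told apart. Under 2% of the thinned GCG-high cells held at least 3 of 8 proliferation genes: 2 of 126, 4 of 252 and 4 of 236 cells (1.59%, 1.59% and 1.69%).

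Against INS-high cells, the GCG-high cells had more of 3 alpha cell transcription factors and less of 4 beta cell ones. A gene counted as higher or lower when it differed at least 2-fold the same way in all 3 libraries, on log2 ratios with 10 CPM added and among 4278 genes with at least 50 CPM and 50 UMIs on the higher side in each. By this rule of size 99 genes (2.31%) were higher and 183 (4.28%) lower in GCG-high cells, apart from the 4 genes of the rule. Since the rule for the cells sets these kinds apart, the counts describe them and test nothing. INS-high cells were deeper, at a median of 59217, 43958 and 60544 UMIs, and had less MALAT1, at 1.24%, 1.30% and 1.27%; the part of either in the values below was not tested.

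IRX1, a homeobox gene of alpha cells, stood at 134, 163 and 161 CPM in GCG-high and 33.1, 51.9 and 45.1 CPM in INS-high cells, and its neighbour IRX2 at 287, 328 and 317 CPM against 98.7, 124 and 106 CPM. For both genes the lowest library of GCG-high cells lay above the highest of INS-high cells. The share of all eligible genes that do the same was not counted. Of the 16 listed alpha transcription factors 14 had enough UMIs, of which 3 were higher, IRX1 and IRX2 among them, and none was lower; the list's median log2 ratio was 0.49, beside −0.03 for all eligible genes. PAX6, a factor of all islet endocrine cells, was within 2-fold at 252, 253 and 242 CPM against 237, 268 and 240 CPM. ISL1, another such factor, stood at 371, 382 and 396 CPM against 453, 412 and 424 CPM.

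Among 6 eligible beta transcription factors, 4 were lower and none higher, with a median log2 ratio of −2.08. PDX1, the pancreas and beta cell regulator, stood at 7.38, 4.68 and 2.38 CPM in GCG-high and 112, 105 and 104 CPM in INS-high cells. NKX6-1, which guards beta identity, stood at 8.81, 11.1 and 5.49 CPM against 134, 143 and 132 CPM. PAX4 (9.02, 12.7 and 7.25 CPM against 97.2, 117 and 112 CPM) and MNX1 (27.5, 30 and 27.3 CPM against 105, 106 and 100 CPM) were the other two. After thinning, PDX1 gave a UMI in 6.35%, 4.37% and 2.12% of GCG-high cells against 62.7%, 54.3% and 56.5% of INS-high cells (unthinned 15.1%, 10.7% and 8.05% against 97.2%, 89.3% and 95.2%). RFX3 and ONECUT2, on the same list, stayed within 2-fold.

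**Figure D2:**
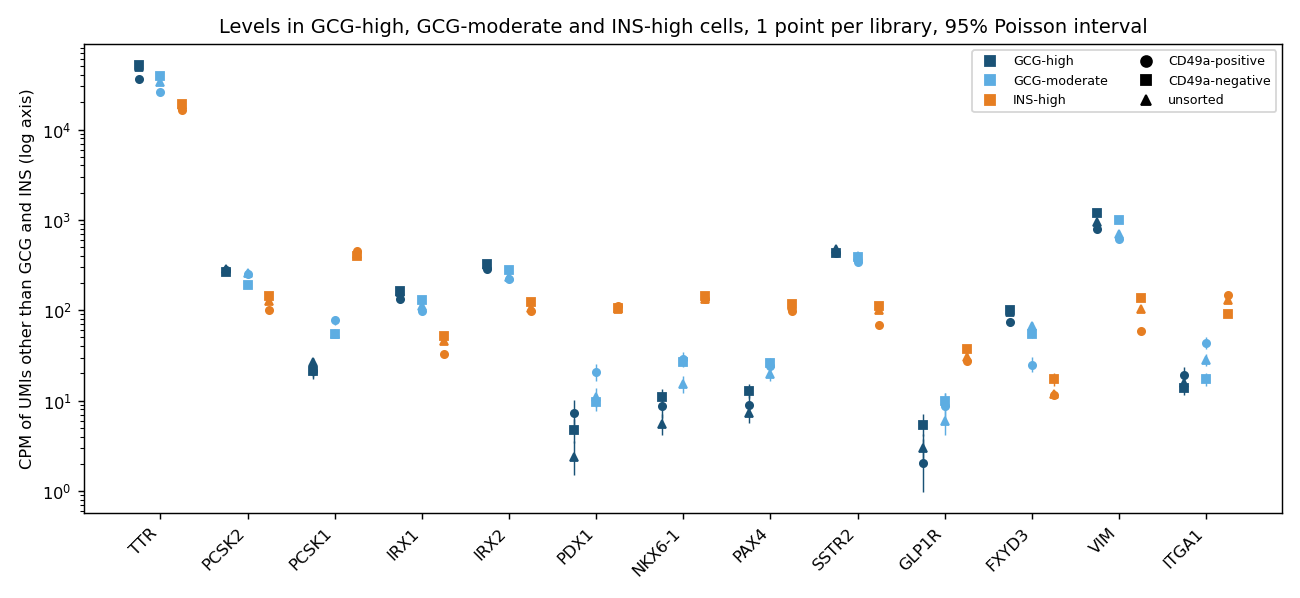
CPM of UMIs other than GCG and INS (y axis, log) for 13 genes in GCG-high, GCG-moderate and INS-high cells. Each point is 1 library with its 95% Poisson interval; VIM and SSTR2 lie higher and PCSK1, PDX1, NKX6-1, PAX4 and ITGA1 lower in GCG-high than in INS-high cells.

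The hormone processing enzymes separated in the same way. PCSK1 stood at 21.3, 21.3 and 26.4 CPM in GCG-high and 451, 397 and 419 CPM in INS-high cells (log2 ratios −3.88, −3.70 and −3.56). PCSK2 stood at 276, 268 and 288 CPM against 100, 146 and 126 CPM, higher in each library but short of 2-fold in the negative one. PCSK1 gave a UMI in 14.3%, 10.7% and 15.7% of thinned GCG-high cells against 89.6%, 84.3% and 85.1% of INS-high cells (unthinned 41.3%, 37.7% and 38.6% against 98.4%, 93.9% and 97.6%). Of 14 eligible genes of granule cargo and processing, TTR was higher and PCSK1 and PAM, the amidating enzyme, were lower. TTR, a thyroxine carrier abundant in alpha cells, stood at 36622, 51237 and 49398 CPM against 16314, 19216 and 18711 CPM. The chromogranin CHGA differed little, at 13559, 13522 and 14134 CPM against 11128, 10761 and 12106 CPM.

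Surface, secreted and metabolic genes known from alpha cells were mostly higher. Of 11 eligible genes on that list 9 were higher and none lower, with a median log2 ratio of 1.62. GC, the vitamin D binding protein, stood at 114, 133 and 120 CPM in GCG-high and 11.4, 33.9 and 11.4 CPM in INS-high cells. DPP4, the peptidase that cuts incretins, stood at 244, 303 and 221 CPM against 41.1, 65.6 and 46.4 CPM. RGS4, a brake on G-protein signalling, stood at 364, 345 and 361 CPM against 55.4, 71.7 and 62.6 CPM. ALDH1A1, FXYD3, SERPINA1, PTPRT and SPOCK3 were also higher. GLUL, which makes glutamine from glutamate and stands on the list of amino acid handling, was higher as well, at 259, 270 and 273 CPM against 67.6, 66.5 and 62.5 CPM. It was 1 of 2 higher members among the 6 eligible genes of that list, and none was lower.

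Of 6 eligible receptors of islet signals 1 was higher and 1 lower. Their median log2 ratio was −0.52, beside −0.03 for all eligible genes. SSTR2, through which somatostatin holds back glucagon release, stood at 436, 427 and 477 CPM in GCG-high and 69.1, 111 and 101 CPM in INS-high cells. ACVR1C, a receptor of the activin family, was lower at 457, 280 and 383 CPM against 1054, 880 and 937 CPM. GLP1R, the incretin receptor of beta cells, was too low to count by the rule at 2.05, 5.40 and 3.0 CPM against 27.5, 36.9 and 30.8 CPM. The incretin receptor GIPR, by contrast, was similar, at 74.6, 69.9 and 65.5 CPM against 85.3, 85.4 and 89.7 CPM. ITGA1, the gene of the sorted protein, stood at 19.1, 13.7 and 15.6 CPM in GCG-high and 148, 91.4 and 130 CPM in INS-high cells and was the lower one of 5 eligible integrins and matrix ligands.

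Of the other lists few members passed. SYT13 was lower among 13 eligible exocytosis genes, PDE3A and PDE4B, which degrade cAMP, among 11 of cAMP signalling, SOX11 among 6 progenitor genes and XBP1 among 10 of the unfolded protein response. VIM was higher among 13 cytoskeleton genes, at 792, 1194 and 943 CPM against 59.3, 138 and 103 CPM. None passed either way among 10 genes of electrical excitability (median log2 ratio −0.54), 7 immediate early genes (0.69), 12 respiratory chain subunits (0.19) and 2 genes of glucose handling (−0.62). SYT13 stood at 24.4, 32.5 and 28.9 CPM in GCG-high against 106, 112 and 122 CPM in INS-high cells.

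Outside the lists, the genes farthest above INS-high cells in every library were led by VEGFC, a growth factor of lymphatic vessels, at 232, 166 and 243 CPM against 5.10, 8.20 and 9.75 CPM. GLI3, a transcription factor of the hedgehog pathway, followed at 180, 155 and 174 CPM against 6.06, 10.0 and 10.4 CPM. GRIN3A, a subunit of NMDA glutamate receptors, stood at 385, 204 and 311 CPM against 15.6, 17.5 and 26.3 CPM, and LPAR1, a receptor of lysophosphatidic acid, at 209, 122 and 142 CPM against 6.08, 8.65 and 7.13 CPM. IQGAP2, IGFBP2, NRXN3, GPC5-AS1 and ZNF385D were also among the first 12, with VIM and RGS4. The genes farthest below were led by DLK1, an imprinted Notch-like protein, at 15.2, 17.6 and 15.2 CPM against 372, 473 and 402 CPM. CCSER1 stood at 442, 230 and 127 CPM against 6232, 6153 and 5987 CPM, so that GCG-high cells differed more among libraries in this gene than INS-high cells did. HADH, the mitochondrial enzyme whose loss causes insulin oversecretion, stood at 17.8, 13.3 and 11.4 CPM against 215, 178 and 185 CPM. BACE2, CALB2, LHFPL6, LRFN2, NPTX2, PCDH7, PCSK1 and NKX6-1 were also among the first 12.

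GCG-moderate cells, with GCG of 50 to below 500 and the same other limits, were close to GCG-high cells in the genes with enough UMIs. They numbered 103, 221 and 156, so GCG-high cells were 55.2%, 53.4% and 60.2% of both kinds together (exact binomial intervals 48.5 to 61.8, 48.8 to 57.9 and 55.2 to 65.1). Among 4086 eligible genes 0 were 2-fold higher in GCG-high cells in all 3 libraries (0%) and 2 were lower (0.0489%). No gene of the 16 lists was among them. The lower 2 were CCSER1, at 442, 230 and 127 CPM against 1819, 549 and 1022 CPM, and SEMA6D, a semaphorin, at 21.9, 24.2 and 21.1 CPM against 65.5, 64.1 and 55.6 CPM. SEMA6D fell short of 2-fold with 50 CPM added, with cells weighted equally or without the deepest 10% of cells. CCSER1 did so in 1 library when cells needed 2000 genes and at most 10% mitochondrial UMIs. None of the 8 proliferation genes was eligible, but their sum was higher in GCG-moderate cells. It was 177, 105 and 144 CPM there against 25.8, 68.2 and 74.5 CPM in GCG-high cells. After thinning, 4.08%, 5.96% and 3.95% of GCG-moderate cells held at least 3 of these genes, against 1.59%, 1.59% and 1.69% of GCG-high cells. These were only 4, 13 and 6 cells against 2, 4 and 4. The exact binomial intervals overlapped in each library. They were 1.12 to 10.1, 3.21 to 9.98 and 1.46 to 8.39 for GCG-moderate cells. For GCG-high cells they were 0.193 to 5.62, 0.434 to 4.01 and 0.464 to 4.28.

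Smaller differences between these kinds had a direction by list. Median log2 ratios were 0.40 for respiratory chain subunits, 0.28 for immediate early genes and 0.23 for granule genes, beside −0.06 for all eligible genes. Genes of electrical excitability stood at −0.42 and receptors at −0.36. COX7C, a subunit of cytochrome c oxidase, stood at 530, 702 and 662 CPM in GCG-high and 406, 550 and 428 CPM in GCG-moderate cells. CACNA2D1, an auxiliary calcium channel subunit, stood at 948, 675 and 735 CPM against 1411, 921 and 1166 CPM. PCSK1 was intermediate in GCG-moderate cells, at 77.5, 54.0 and 54.7 CPM. PDX1 was intermediate too, at 20.6, 9.62 and 11 CPM. IRX2 differed less, at 224, 278 and 236 CPM in GCG-moderate cells. MALAT1 differed as well, at a median of 2.0%, 1.97% and 2.04% of UMIs in GCG-moderate cells against 1.63%, 1.62% and 1.71%; its part in these differences was not tested.

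**Figure D3:**
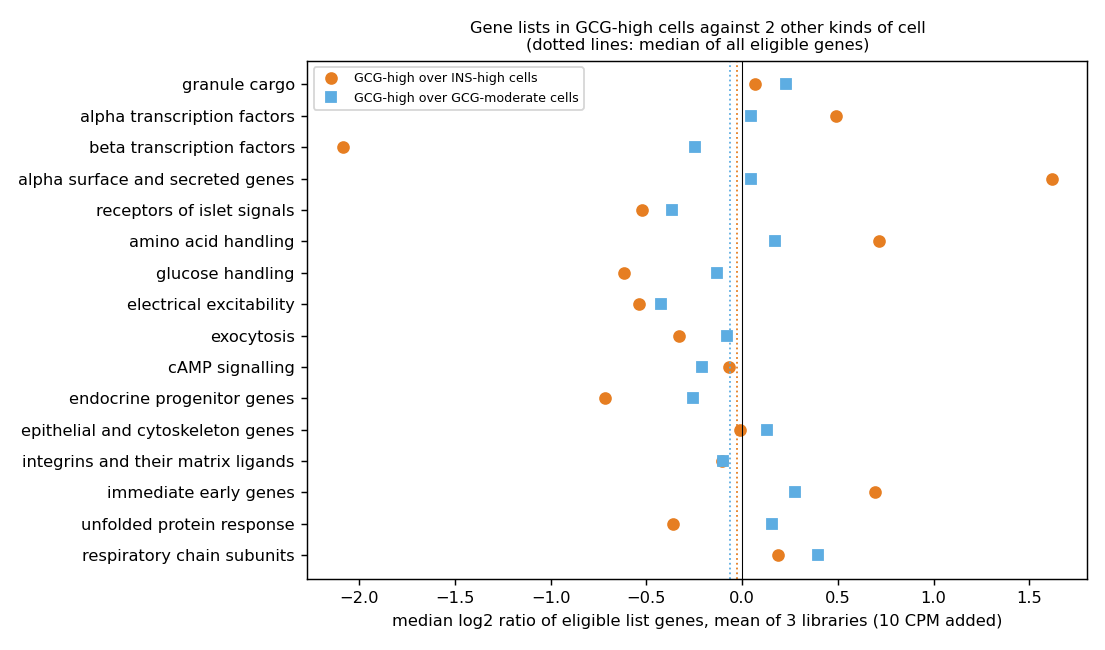
Median log2 ratio (x axis, mean over 3 libraries, 10 CPM added) of the eligible genes of each of 16 lists, in GCG-high over INS-high cells (circles) and over GCG-moderate cells (squares), with dotted lines at the median of all eligible genes (−0.03 and −0.06). Against INS-high cells the alpha surface list (1.62) and the beta factors (−2.08) lie farthest out, and against GCG-moderate cells every list lies nearer to 0 than these 2 values.

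Cells with both hormones, having GCG of at least 500 and INS of at least 300, were few and deep. They numbered 14, 24 and 32, with a median of 76765.5, 67209.5 and 78689 UMIs against 40623, 38359 and 40705.5 in GCG-high cells. No doublet caller was run, and droplets with 2 cells were not separated from single cells with both hormones. Of 3964 eligible genes 7 (0.177%) were higher and 34 (0.858%) lower in GCG-high cells. The named higher genes were NRXN3, a synaptic adhesion protein at 1221, 747 and 1005 CPM against 487, 297 and 395 CPM, and GLI3, ZNF385D, GRIN3A, FCHSD2 and LPAR1. PCSK1 was lower at 21.3, 21.3 and 26.4 CPM against 287, 154 and 264 CPM. NKX6-1 was lower at 8.81, 11.1 and 5.49 CPM against 64.9, 58.2 and 60.7 CPM. DLK1, CCSER1, CALB2, NPTX2, PCDH7, NEXMIF, LHFPL6, PCP4 and PLD5 were also lower. IRX1, at 81.4, 120 and 117 CPM in cells with both hormones, and IRX2, at 256, 273 and 228 CPM, did not pass. The median log2 ratio of all eligible genes was 0.02.

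Within GCG-high cells, the 3 libraries were much alike. Values compared between libraries are CPM of all UMIs summed over the GCG-high cells of each library. Between the CD49a-positive and CD49a-negative cells, 2 of 3935 eligible genes were higher by the 2-fold rule (0.0508%) and 1 was lower (0.0254%). Between positive and unsorted cells 1 of 3871 genes was higher and 1 lower (0.0258% each), and between negative and unsorted cells 1 of 3786 was higher and 1 lower (0.0264% each). No gene of the 16 lists was among them. The median log2 ratio of all eligible genes was 0.08, 0.05 and −0.02 for the 3 pairs.

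NPW, the gene of the secreted neuropeptide W (chr16:2009926-2020755, plus strand), was high in the negative library. It stood at 145 CPM in positive, 413 CPM in negative and 90.4 CPM in unsorted GCG-high cells. The negative level was 4.57 times the unsorted one (interval 4.27 to 4.90, log2 ratio 2.08), and the positive level was 0.350 times the negative one (0.324 to 0.377, log2 ratio −1.45). After thinning, 54.8%, 81.7% and 49.2% of GCG-high cells had an NPW UMI, against 30%, 45.7% and 26.2% of INS-high cells. The part of free RNA in these shares was not tested. The richest GCG-high cell held 5.11%, 1.95% and 3.52% of the NPW UMIs. The same order of libraries was seen outside GCG-high cells. GCG-moderate cells had 155, 359 and 93.3 CPM of NPW, INS-high cells 61.6, 151 and 52.5 CPM and all kept cells 83.0, 301 and 78.4 CPM. NPW stayed past 2-fold in both pairs with the negative library under every alternative run.

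EYS, known from the retina (chr6:63719980-65707225, minus strand), stood at 296, 141 and 195 CPM in GCG-high cells, 2.09 times higher in positive than negative cells (1.95 to 2.24, log2 ratio 1.01). It sat at the edge of the rule, with a log2 ratio of 0.34 when GCG had to reach 1000 and 0.89 without the deepest 10% of cells. EYS also stood at 253, 177 and 208 CPM in INS-high cells. The other higher gene, chosen for mention after its value was seen, was the clone-named AC097518.2 at 77.0 against 28.2 CPM.

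The UMIs of IAPP and CCSER1 lay in few cells. IAPP, the beta cell peptide amylin (chr12:21354959-21379978, plus strand), stood at 158, 103 and 364 CPM in GCG-high cells, with log2 ratios of −1.15 for positive and −1.72 for negative over unsorted cells. After thinning, the richest single cell held 38.0%, 37.7% and 47.5% of all IAPP UMIs and 2, 2 and 7 cells held at least 10 of them. Without the 5% of cells richest in IAPP in each library, a setting chosen after seeing the data, the levels were 53.2, 18.7 and 26.3 CPM and the positive cells lay above the unsorted ones (log2 ratio 0.80). IAPP stood at 1918, 1822 and 1945 CPM in INS-high cells, in the same order of libraries but with small gaps.

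CCSER1 (chr4:90127535-91601913, plus strand) stood at 394, 206 and 112 CPM, 3.50 times higher in positive than unsorted GCG-high cells (3.26 to 3.76, log2 ratio 1.72). After thinning, the richest 10% of cells held 80.5%, 83.3% and 72.7% of its UMIs, and 5, 6 and 3 cells held at least 10. Those CCSER1-rich cells were deep, with a median of 67485, 64688 and 58905 UMIs, and had a median INS of 191, 75.6 and 203 per 10000. Without the 5% of cells richest in CCSER1 the levels were 80.3, 40.6 and 36.6 CPM and the positive over unsorted log2 ratio 0.95. With GCG at 1000 or more that ratio was 0.85. No cell held 10 UMIs of both IAPP and CCSER1. INS-high cells carried 5633, 5510 and 5332 CPM of CCSER1. Whether the rich cells are droplets with 2 cells was not tested.

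**Figure D4:**
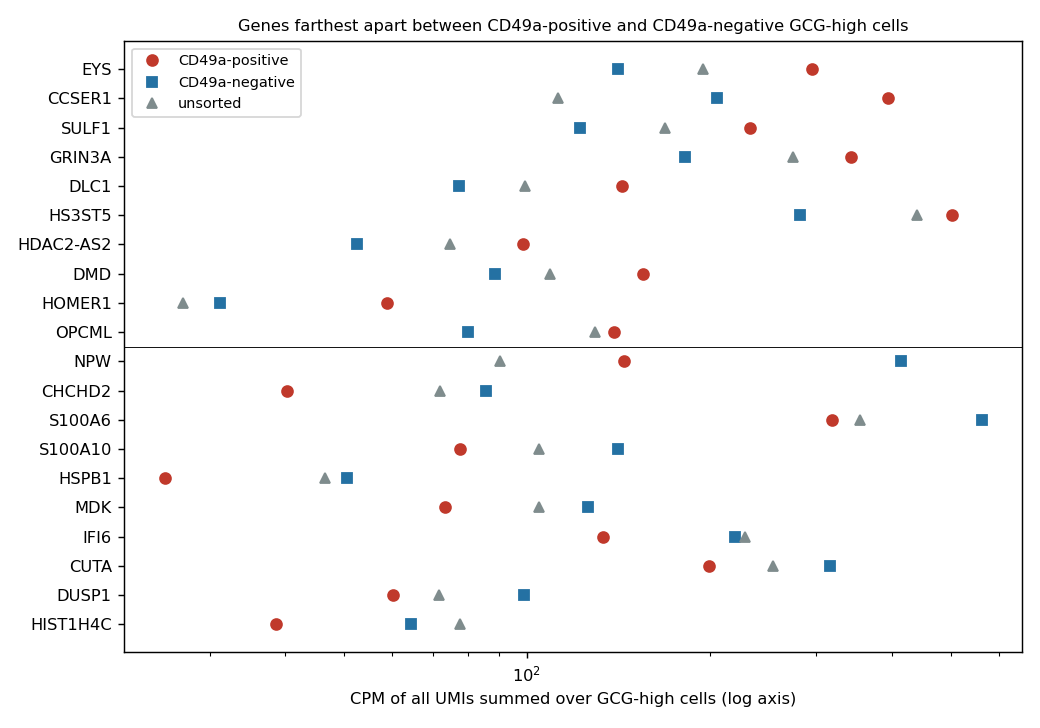
CPM of all UMIs (x axis, log) summed over the GCG-high cells of each library, for the 10 named genes farthest higher (above the line) and the 10 farthest lower (below it) in CD49a-positive than in CD49a-negative cells. NPW shows the widest gap, with 145, 413 and 90.4 CPM in positive, negative and unsorted cells, and for many of the others the unsorted cells lie between the sorted ones.

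Short of 2-fold on the ratio with 10 CPM added, the named genes higher in positive than negative GCG-high cells included SULF1, which trims heparan sulfate (233, 122 and 169 CPM), HS3ST5, which modifies it (503, 282 and 440 CPM), and GRIN3A (343, 182 and 275 CPM). DLC1, HDAC2-AS2, DMD, HOMER1 and OPCML filled the list. Those lower included CHCHD2, a mitochondrial protein (40.3, 85.8 and 71.8 CPM, a plain ratio of 0.470), the calcium binding proteins S100A6 (318, 562 and 354 CPM) and S100A10 (77.7, 141 and 105 CPM), and MDK, the growth factor midkine (73.3, 126 and 105 CPM). HSPB1, IFI6, CUTA, DUSP1 and HIST1H4C were the rest. Positive over unsorted cells gave HOMER1, PCDH7, DGKB, CDH8, MACC1, SIPA1L3 and LPAR1 on the higher side beside CCSER1, NPW and EYS. HIST1H4C, IFI6, CHCHD2, AGT, NDUFA3, TMEM59L, NDUFS3, PET100 and NDUFA1 stood on the lower side with IAPP. The plain ratio of HOMER1 for positive over unsorted cells was 2.16. Negative over unsorted cells gave ZFP36L2, S100A6, S100A11, RBFOX1, FTL, CXCL1, BRI3 and IER2 with NPW and CCSER1 above, and OPCML, HS3ST5, GRIN3A, PTPRT, PTPRG, VEGFC, GDA and CDH18 with IAPP below. The pairs share libraries, so these lists are not independent of each other.

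Most alpha genes differed little between libraries. IRX1 stood at 119, 146 and 142 CPM of all UMIs and IRX2 at 256, 293 and 280. PCSK2 stood at 246, 239 and 254. TTR was lowest in the positive cells, at 32599, 45767 and 43577 CPM, 0.712 times the negative level (0.708 to 0.716), and VIM too, at 705, 1066 and 832 CPM (0.662 times, 0.638 to 0.686). The intervals cover counting error only, and the spread between libraries of 1 group is unknown. The 12 respiratory chain subunits had a median log2 ratio of −0.37 and the 13 eligible cytoskeleton genes of −0.34 for positive over negative cells, beside 0.08 for all genes. The positive cells also had the highest median mitochondrial share (7.66% against 6.65%), whose part in this was not tested.

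ITGA1 was low in GCG-high cells of every library. It rested on 93, 135 and 151 UMIs, or 17.0, 12.3 and 13.8 CPM of all UMIs. The positive level was 1.38 times the negative one (1.05 to 1.81) and 1.23 times the unsorted one (0.939 to 1.60). After thinning, 11.9%, 11.5% and 12.3% of GCG-high cells had an ITGA1 UMI, against 65.3%, 51.8% and 59.6% of INS-high cells; unthinned, the ITGA1 shares were 31.7%, 32.5% and 31.4% against 95.4%, 82.7% and 92.3%. The interval for positive over unsorted cells includes equal levels, and the sort on the protein came 7 days earlier.

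The spread among GCG-high cells was then described. Of 3228 genes with a mean of at least 0.5 UMIs in cells thinned to 10000, 201 (6.23%) had a variance of at least 2 times the mean in all 3 libraries, where pure counting would give about 1. Ranked by the smallest of its 3 values, which grow with a gene's mean, TTR came first, with a variance 83.7, 107 and 84.6 times its mean and single cells holding up to 935, 1305 and 1176 TTR UMIs around medians of 308.5, 438 and 396. Its UMIs were evenly shared all the same, as the richest 10% of cells held 21.0%, 20.9% and 19.4% of them. IAPP, at 25.2, 49.4 and 172 times its mean, exceeded TTR in the unsorted library, and there the richest 10% held 95.6% of its UMIs. MALAT1, CHGA, IAPP, the ferritin chain FTL, CCSER1, GNAS, ALDH1A1, DCC, NRXN3, GPC6, CRYBA2, IGFBP2, PDE4D and MAGI2 followed. CHGA was seen in all cells, with medians of 121, 112.5 and 117 UMIs. IGFBP2, an insulin-like growth factor binding protein, was uneven: it gave a UMI in 61.1%, 67.9% and 62.7% of cells, and the richest 10% held 59.4%, 52.6% and 48.6% of its UMIs. By contrast the richest 10% held 24.8%, 22.8% and 25.2% of the VIM UMIs.

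The cells were then placed in 3 ranges of GCG, at 500 to below 800 (48, 102 and 80 cells), 800 to below 1200 (40, 76 and 70 cells) and 1200 or more (39, 75 and 86 cells). The ranges come from a readout and are described without a test. Among 4030 eligible genes 0 (0%) were 2-fold higher and 7 (0.174%) were 2-fold lower in the top than the bottom range in all 3 libraries. At any size, 30.9% of genes were higher and 44.8% lower in all 3 libraries.

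All 12 respiratory chain subunits were higher in the top range in all 3 libraries, with a median log2 ratio of 0.47 beside −0.08 for all genes. COX7C went from 434, 629 and 568 CPM in the bottom range to 705, 846 and 776 CPM in the top one. Of 13 eligible granule genes 8 were higher and 1 lower (median 0.32), and of 8 genes of the unfolded protein response 6 were higher and 1 lower (0.23). SCG5, the chaperone of PCSK2, went from 665, 763 and 795 to 1098, 1142 and 1191 CPM, and TTR from 31716, 46057 and 43931 to 44284, 57547 and 53901 CPM. Of 9 genes of electrical excitability 8 were lower and 1 higher (median −0.56). CACNA2D1 went from 1127, 762 and 933 to 603, 578 and 504 CPM. PCSK1 went from 34.7, 28.1 and 44.9 to 10.6, 9.83 and 9.06 CPM.

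The named genes highest in the top range were led by B2M, the light chain of class I HLA, which went from 200, 297 and 239 to 404, 530 and 434 CPM, and FABP5, a fatty acid carrier, from 139, 190 and 161 to 292, 328 and 318 CPM. PRDX4, C15orf48, IGFBP2, CD63, SCG5, C1QBP, SDC2, SERPINI1, TMEM147 and SSR4 followed. The 7 genes that were 2-fold lower were CCSER1, ROBO2, GLIS3, CNTNAP2, KCTD8, UNC5D and NPSR1-AS1. ROBO2, an axon guidance receptor, went from 205, 120 and 176 to 77.8, 37.7 and 68.4 CPM, and GLIS3, a transcription factor of islet development, from 98.5, 95.2 and 78.3 to 21.2, 34.8 and 28.8 CPM. TNR, DACH2, CTNNA2, KCNJ3 and PAUPAR followed below 2-fold in at least 1 library. CCSER1 was already low in the middle range of the positive and negative libraries, where 979 and 463 CPM in the bottom range stood against 92.4 and 45 CPM. The median INS level was lower in the top than the bottom range, at 38.7, 34.5 and 35.8 against 84.2, 58.9 and 67.4 per 10000. MALAT1 was lower too, at a median of 1.39%, 1.46% and 1.56% of UMIs against 1.74%, 1.73% and 2.14%. The part of MALAT1, and so of nuclear RNA, in these differences was not tested.

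**Figure D5:**
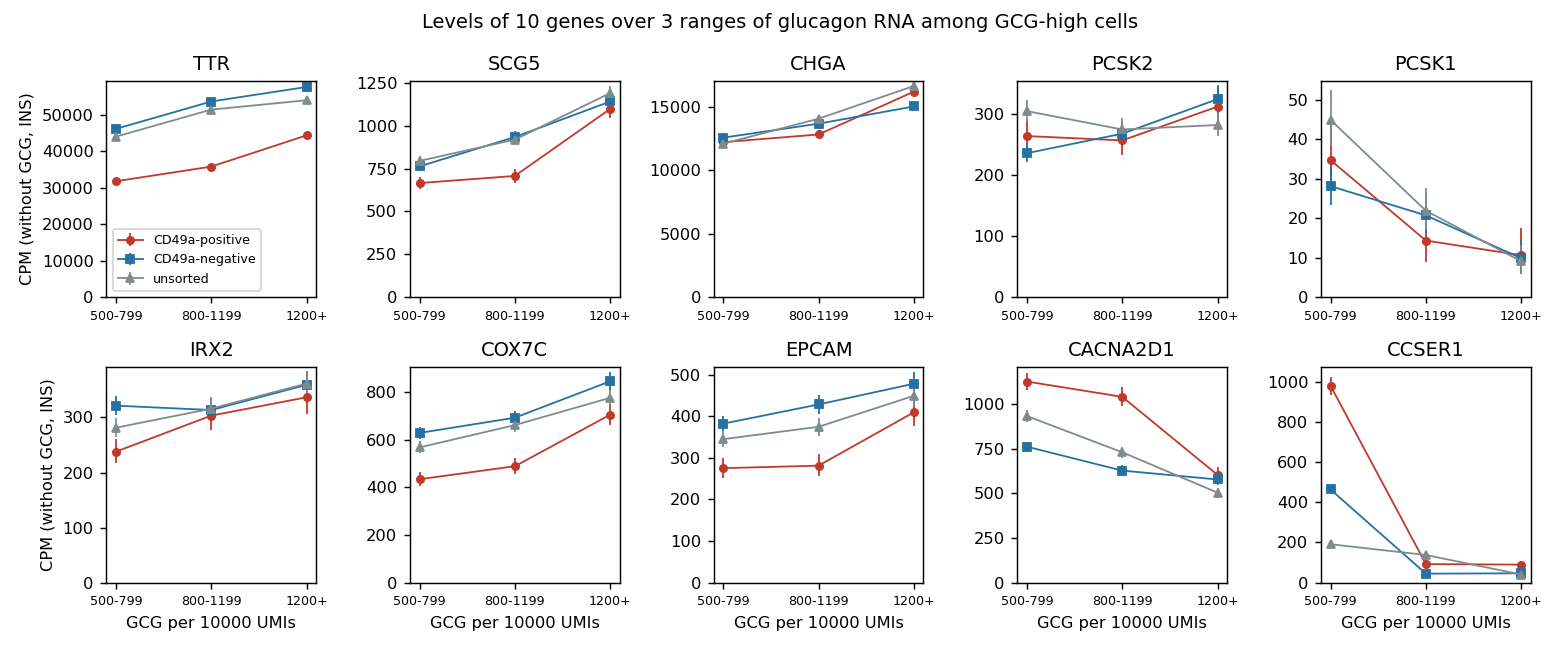
CPM of UMIs other than GCG and INS (y axes from 0) of 10 genes in GCG-high cells with GCG of 500 to below 800, 800 to below 1200 and 1200 or more per 10000 UMIs (x axes), 1 line per library with 95% Poisson intervals. TTR, SCG5, CHGA, COX7C and EPCAM lie higher and CACNA2D1 and PCSK1 lower in the top than the bottom range in all 3 libraries, and CCSER1 in the positive library stands at 979 CPM in the bottom and 92.4 CPM in the middle range.

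Cell by cell, the likeness to GCG was weak. The Spearman correlation across GCG-high cells between the GCG share and the thinned level of a gene, taken over UMIs other than GCG, was 0.40, 0.31 and 0.39 for EPCAM, the epithelial adhesion molecule. It was 0.45, 0.28 and 0.32 for COX7C and 0.33, 0.29 and 0.30 for SCG5. TTR reached 0.27, 0.23 and 0.27. GPC6, a glypican, stood at −0.28, −0.32 and −0.29, and CADPS, a factor for granule priming, at −0.29, −0.25 and −0.21. These are descriptions over 126, 252 and 236 cells of 1 library each, which share depth and free RNA, and carry no test.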

How the data were processed

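Droplet single-cell libraries of HUES8-derived islets (CD49a-positive, CD49a-negative, unsorted; 1 each) were used. The deposited values are UMI counts per gene and barcode over 36601 genes, made by the authors with Cell Ranger 7.1.0 on GRCh38, per the submitters' processing notes. How reads on overlapping or antisense genes were assigned is not given in the sources used here, so GPC5-AS1, HDAC2-AS2, NPSR1-AS1 and PAUPAR are uncertain.

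The cells, gene lists and comparisons were chosen with earlier results of these data known. UMIs were summed per library and kind of cell. Levels between kinds are CPM of totals without GCG and INS, and between libraries CPM of all UMIs. Log2 ratios had 10 CPM added, which understates low genes; 2-fold (a log2 ratio of 1) is a rule of size. Intervals (exact Poisson for sums, Clopper-Pearson for shares, conditional binomial for folds, 95%) cover counting error only. Libraries held 127119509, 88397368 and 114479071 UMIs. For shares and variances cells were thinned to 10000 UMIs, which left out 1, 1 and 0 GCG-high cells.

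Genes named were the members of 16 lists and 13 marker lists, the first 12 each way between kinds (by their smallest ratio over the libraries) or GCG ranges, the first 10 each way between libraries and the 15 most variable. Clone-named, LINC, mitochondrial and ribosomal protein genes were counted but not named, apart from 1, and some genes of the lists are not reported here. No doublet caller was run. Positions came from GENCODE release 29 (351 of 351 genes matched) and promoter bases from RefSeq (GRCh38.p14). The count rule was tested on simulated sums with known changes and counting error only. Spread between cells or libraries was not simulated. Python 3.11.15, numpy 2.4.6, scipy 1.17.1, pandas 2.3.3 and matplotlib 3.10.9 were used. Alternatives were other pseudocounts, scalings, cell limits, cell weights, depths and no filter on low genes.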

Additional observations from a re-analysis of the deposited data

Results flagged for a closer look

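Barcodes that failed the limits on genes, mitochondrial UMIs or MALAT1 were used in no comparison, and some of them met the hormone limits of GCG-high cells. They were 29 of 2437 removed barcodes in the positive library (1.19%, exact binomial interval 0.798 to 1.70), 36 of 763 in the negative (4.72%, 3.33 to 6.47) and 30 of 760 in the unsorted (3.95%, 2.68 to 5.59). They held a median of 3090, 3813 and 4772.5 UMIs, and 21, 31 and 26 of them fell short of the MALAT1 limit. With 1 library per group there were no replicates in which a single sample could stand apart.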

How the results depend on the processing

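The counts of genes past 2-fold are small between libraries and move by a few genes with most settings. Of values recomputed for single named genes, 923 kept their direction and side of 2-fold, 30 lost 2-fold, 8 gained it and 1 reversed. That 1 was IAPP in positive over unsorted cells, at 0.80 without the 5% of cells richest in the gene. Leaving out the filter on low genes does not change a ratio, so the values of that setting were bound to stay. Most genes named between libraries were short of 2-fold from the start, and for them keeping their side means staying below it. The cause of a move was not tested.

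The share of GCG-high cells (positive, negative, unsorted) was 8.29%, 18.7% and 14.7% with GCG at least 300, and positive minus negative was then −10.5 points. With GCG at least 1000 it was 2.46%, 5.99% and 5.75% (−3.53 points), and with INS below 100 it was 4.48%, 11% and 8.68%. When cells needed 2000 genes and no more than 10% mitochondrial UMIs, the negative share was 16.2% and the unsorted 14.5%.

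Genes higher in positive than negative cells numbered 2, but 0 with 50 CPM added or without the deepest 10% of cells, 1 with median-of-ratios scaling, with cells weighted equally or with INS below 100, and 5 with GCG at least 1000. The lower count of 1 was 2 with 1 CPM added or no filter. Positive over unsorted, the higher count of 1 was 2 with 1 CPM and 4 with no filter, and the lower count of 1 was 0 with 50 CPM, equal weights or without the deepest cells and 2 with no filter or GCG at least 1000. Negative over unsorted, the higher count of 1 was 2 with GCG at least 1000 or INS below 100, and the lower count of 1 was 2 with no filter or GCG at least 1000 and 0 without the deepest cells.

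Over GCG-moderate cells the 2 lower genes became 10 with 1 CPM, 7 with totals that include GCG and INS, 4 with no filter, and 1 with 50 CPM, equal weights or without the deepest cells. Over cells with both hormones the 7 higher became 12 with 1 CPM, 4 with equal weights and 1 with 50 CPM, and the 34 lower 11 with 50 CPM. Over INS-high cells 99 higher and 183 lower became 52 and 99 with 50 CPM and 154 and 278 with no filter. At 20000 UMIs per cell 514 genes, not 201, had a variance of at least 2 times the mean. More genes reached a mean of 0.5 UMIs at that depth, 5856 against 3228 in the main setting. The 2 counts thus have different bases, and the share of genes rose less than the count. No paired analysis was possible because each group had 1 library. Depth limits low genes most: GLP1R and PDX1 rest on a few CPM in GCG-high cells.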
